A study of Mus musculus with 16 samples.

Results

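The contractile and smooth muscle genes described here are 10 genes of the actin and myosin apparatus that marks myofibroblasts and smooth muscle: ACTA2, ACTG2, MYH11, MYL9, MYLK, TPM1, TPM2, CNN1, TAGLN and LMOD1. They were matched by gene symbol, and 9 of the 10 were found among the 18132 genes of the table. The expression of MYL9 was not analysed here. The question was whether tumor-conditioned medium lowers these transcripts in mammary fibroblasts of each genotype. The 10 genes were chosen by their place in the contractile apparatus with the measured responses to conditioned medium already known, so those responses are given as a description, with standard errors and no p value for a member.

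Primary fibroblasts had been cultured from inguinal mammary glands of female 129S6 mice aged 8 to 10 weeks, either MEKK1+/+ or MEKK1-/-. MEKK1 is a kinase of the MAP kinase cascades and is encoded by MAP3K1. Control cultures stayed in DMEM growth medium with serum (untreated), and treated cultures received for 8 h the same medium after it had been conditioned by MDA-MB-231 cells, a human breast cancer cell line (here called conditioned medium). There were 16 Illumina Mouse 8 arrays in 4 groups, with 4 arrays in each group: MEKK1+/+ and MEKK1-/- cells, each untreated or with conditioned medium. The cultures came from 3 mice of each genotype, so the 4 arrays of a group share animals, and the labels do not say which culture came from which mouse. Errors and p values therefore measure the spread between cultures, with n counting arrays, and are too small as a measure of the spread between mice.

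Fibroblasts that take on a contractile state assemble smooth muscle actin into stress fibers, along which myosin pulls once its regulatory light chain is phosphorylated by myosin light chain kinase. Tropomyosins, calponin, transgelin and leiomodin sit on or nucleate the actin filaments. Many of these genes are switched on by serum response factor (SRF), which binds the CArG box, a pair of C, a run of A or T and a pair of G, together with myocardin-family coactivators that respond to the state of the actin cytoskeleton. Mural cells of vessels and myoepithelial cells of the gland also express the set.

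SRF was among the transcripts that changed, so RefSeq promoter windows (GRCm38.p6, 250 bases before an annotated start) were searched for the CArG box, which reads the same on both strands. A window was found for 7 of the 10 members, namely MYL9 and 6 of the 9 measured genes. Of these 6, 0 held an exact CArG box, against 1.47% of all 32851 windows. The MYL9 window held 1 exact CArG box, 161 to 152 bases before the start. With at most 1 C or G allowed in the A and T run, 1 of the 6, ACTA2, held a match, against 8.59% of all windows. Outside the 10, the list genes described below as changed in both genotypes were also looked up. MYLC2B (now MYL12B) had a window with no match of either kind, and no window was found for TGFB1I1 or ATP2A2. The stretches shown are both ACTA2 matches and the exact matches of SRF and FHL2, whose transcripts changed with conditioned medium, with the CArG match in capitals. All lie on the minus strand and inside the annotated bounds of their own gene.
ACTA2, chr19:34255438-34255467, match 84 to 75 bases before the start: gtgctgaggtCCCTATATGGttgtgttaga
ACTA2, chr19:34255388-34255417, match 34 to 25 bases before the start: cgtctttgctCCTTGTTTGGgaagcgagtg
SRF, chr17:46556225-46556254, match 82 to 73 bases before the start: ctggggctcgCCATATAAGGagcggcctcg
SRF, chr17:46556205-46556234, match 62 to 53 bases before the start: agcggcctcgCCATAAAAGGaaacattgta
FHL2, chr1:43196838-43196867, match 96 to 87 bases before the start: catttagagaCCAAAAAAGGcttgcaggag
FHL2, chr1:43163973-43164002, match 31 to 22 bases before another start: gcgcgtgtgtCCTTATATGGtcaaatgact

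The whole window of LMOD1 is shown because LMOD1 was lower with conditioned medium and held no match. It lies on the plus strand at chr1:135324563-135324812 and ends at the base before the annotated gene.
LMOD1: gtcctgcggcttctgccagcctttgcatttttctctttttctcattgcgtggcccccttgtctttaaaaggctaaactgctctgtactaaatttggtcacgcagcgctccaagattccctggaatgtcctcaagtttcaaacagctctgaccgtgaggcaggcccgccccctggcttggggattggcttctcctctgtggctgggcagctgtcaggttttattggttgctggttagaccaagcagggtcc
The window of MYLK, the member with the largest response, held no match either. It lies on the plus strand at chr16:34784700-34784949, inside the annotated gene, which begins at base 34745199. The bases before that first annotated base of MYLK were not searched. These matches describe the letters of the windows and say nothing about binding in these cells.

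Values are log2 intensities after quantile normalization between arrays, and a gene was called above background on an array when its intensity passed the 99th percentile of 1075 olfactory receptor genes there. By this measure 7 of the 9 members (ACTA2, ACTG2, MYH11, MYLK, TPM1, TPM2 and TAGLN) were above background on all 16 arrays, LMOD1 on 15 and CNN1 on 0. Array medians of the deposited intensities ran from 114 to 170, and the log2 values of arrays of a group correlated at 0.978 to 0.996. Of 13 fibroblast markers found, 12 were above background on every array. Of 13 mural markers, 3 (CSPG4, MCAM and SMTN) were above background on every array. NOTCH3 was above it on 15 arrays, DES on 10, KCNMB1 on 7, KCNJ8 on 3 and HIGD1B on 1. MYOCD, RGS5, ABCC9, PLN and CASQ2 were above background on none.

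Some arrays stood apart. The MEKK1-/- arrays numbered 1 carried epithelial transcripts: the summed signal of 10 luminal markers was 12.96 untreated and 12.93 with conditioned medium on the log2 scale, against 10.48 to 10.86 on the other MEKK1-/- arrays, and that of 8 myoepithelial and basal markers was 12.69 and 12.41 against 10.01 to 10.35. The MEKK1-/- arrays numbered 1 also stood apart in 9 endothelial markers. Their sums were 11.24 untreated and 11.24 with conditioned medium, against 10.50 to 10.62 on the other MEKK1-/- arrays. KRT5 and TRP63, which define basal cells, were above background on 0 arrays. The arrays numbered 2 stood apart in 18 macrophage markers. Their sums were 14.80 untreated and 14.61 with conditioned medium in MEKK1+/+ against 15.65 to 16.21 on the other MEKK1+/+ arrays, and 15.91 and 15.64 in MEKK1-/- against 13.60 to 15.10 on the other MEKK1-/- arrays. MAP3K1 itself showed no loss of signal under the MEKK1-/- label: untreated it was 7.95, 7.77, 7.60 and 7.51 in MEKK1+/+ and 8.06, 8.31, 8.17 and 8.41 in MEKK1-/-, a difference of 0.53 (limma adjusted p = 0.465), with an exact permutation p of 0.0286, 2-sided, the smallest that 4 arrays against 4 can give. Whether its probe lies in the deleted part is not known here, so the genotype is that of the labels.

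**Figure D1:**
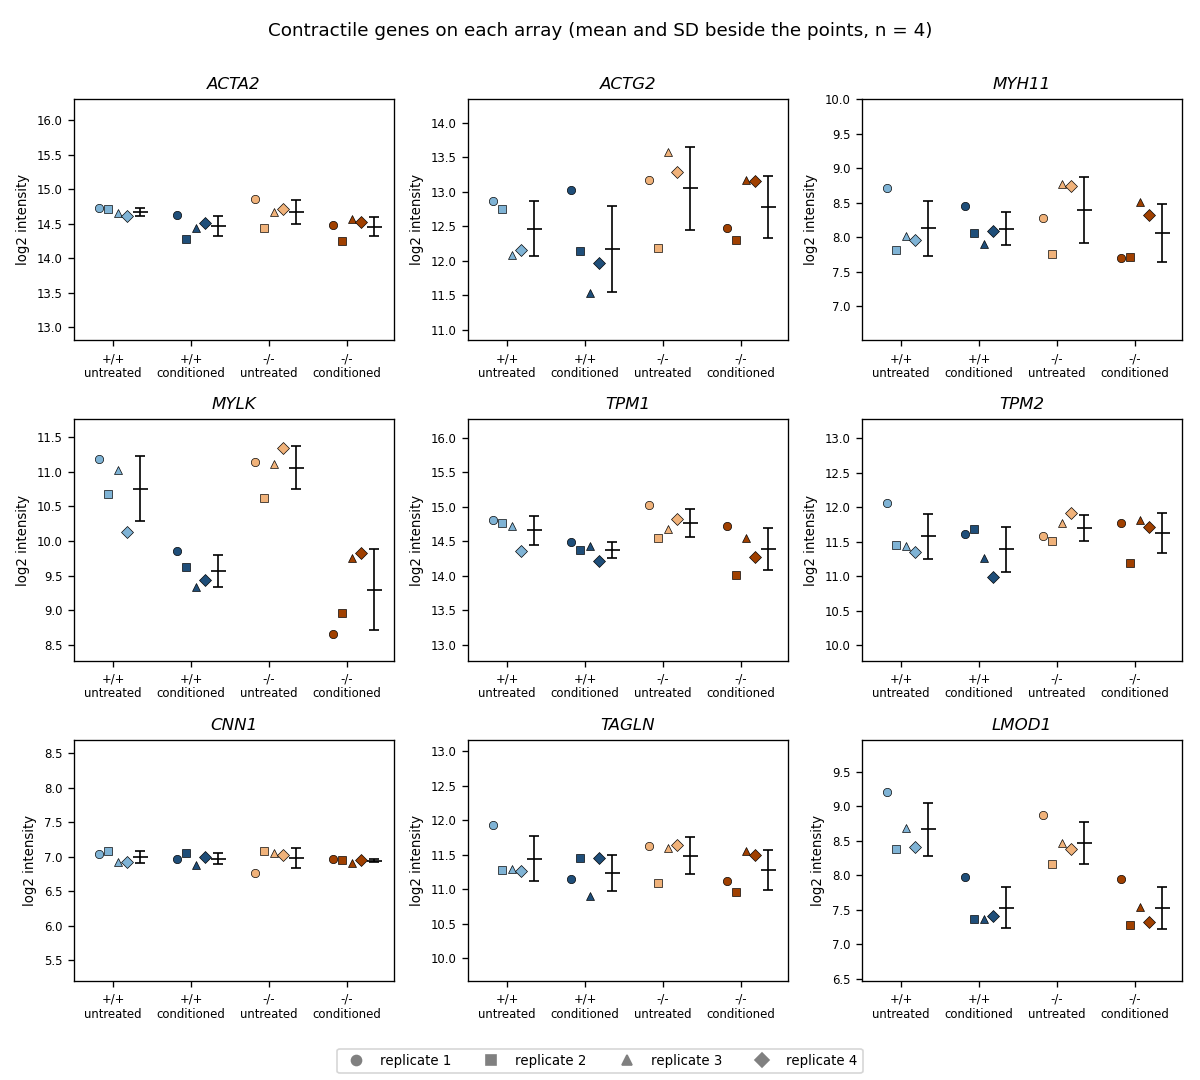
Log2 intensity (y axis) of the 9 measured contractile genes on each of the 16 arrays, by genotype and treatment (x axis); marker shape gives the replicate number, and the bar beside each group its mean and SD (n = 4). For MYLK and LMOD1 all 4 arrays with conditioned medium sit below all 4 untreated arrays in both genotypes, while the groups of the other 7 genes overlap.

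With conditioned medium, 2 of the 9 contractile transcripts were called lower, MYLK and LMOD1, in MEKK1+/+ and also in MEKK1-/- cells, and 0 were called higher. The other 7, ACTA2 among them, were not called in either genotype. A gene was called when its adjusted p in the limma fit over all 18132 genes was under 0.05. Of all genes, 2.75% were called lower and 2.27% higher with the wild-type genotype, and 2.51% and 2.18% in the same order without MEKK1. Among the 6926 genes above background on every array, 6.17% and 5.5% were called lower in the respective genotype, and 1 of the 7 members among them (MYLK) in each; LMOD1 is not in that set. All 9 differences were below 0 in each genotype, where 50.7% and 51.8% of all genes were, and their median was -0.21 in MEKK1+/+ and -0.27 in MEKK1-/- on the log2 scale against -0.00 for all genes in both. Of the members behind these signs, MYH11 was at -0.00 in MEKK1+/+ cells and CNN1 was not above background.

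**Figure D2:**
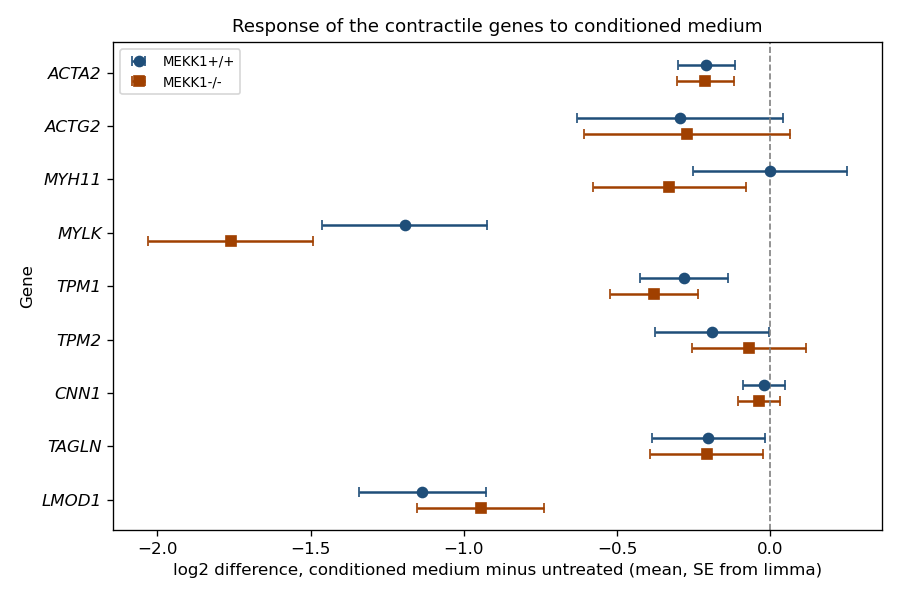
Log2 difference between conditioned medium and untreated arrays (x axis) for the 9 contractile genes (y axis) in MEKK1+/+ (circles) and MEKK1-/- (squares); bars are the standard error from limma with 4 arrays a group. MYLK and LMOD1 lie near or beyond -1, and the other 7 genes between -0.38 and -0.00.

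MYLK encodes myosin light chain kinase, the calcium and calmodulin dependent enzyme that switches smooth muscle and nonmuscle myosin on. In untreated MEKK1+/+ cells its log2 intensity was 11.19, 10.68, 11.03 and 10.13 in replicates 1 to 4, and with conditioned medium it was 9.86, 9.62, 9.34 and 9.44. In untreated MEKK1-/- cells it was 11.14, 10.62, 11.12 and 11.35, and with conditioned medium 8.66, 8.95, 9.76 and 9.82. All 4 treated arrays lay below all 4 untreated arrays in each genotype, a separation in that direction seen in 5.02% of all genes in MEKK1+/+ and in 5.53% in MEKK1-/- cells. The difference was -1.19 (SE 0.27), or 2.29-fold lower, in MEKK1+/+ cells and -1.76 (SE 0.27), or 3.39-fold lower, in MEKK1-/- cells. The gene's own mean fell from 10.76 ± 0.47 to 9.56 ± 0.23 and from 11.06 ± 0.31 to 9.30 ± 0.58 (SD, n = 4). In MEKK1+/+ cells MYLK was no longer called without untreated replicate 1 (difference -1.05), untreated replicate 3 (-1.10) or treated replicate 4 (-1.15), or when the arrays numbered 2 of all 4 groups were left out together (-1.24). Without both MEKK1-/- arrays that carried epithelial transcripts, MYLK was still called in MEKK1-/- cells, at -1.53.

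LMOD1 encodes leiomodin 1, a nucleator of actin filaments known mainly from smooth muscle. Untreated MEKK1+/+ arrays read 9.21, 8.38, 8.69 and 8.41, and those with conditioned medium 7.98, 7.37, 7.37 and 7.41. Untreated MEKK1-/- arrays read 8.88, 8.16, 8.46 and 8.38, and those with conditioned medium 7.94, 7.28, 7.55 and 7.33. The groups were again fully separated in both genotypes, and replicate 1 was the highest array of every group. The difference was -1.14 (SE 0.21), or 2.2-fold lower, in MEKK1+/+ and -0.94 (SE 0.21), or 1.92-fold lower, in MEKK1-/- cells. With conditioned medium LMOD1 was above background on 4 of 4 MEKK1+/+ and on 3 of 4 MEKK1-/- arrays. In MEKK1-/- cells LMOD1 was no longer called without treated replicate 2 (-0.88) or treated replicate 4 (-0.88), nor with the arrays scaled to the same median (-0.87). Without the pair of arrays with epithelial transcripts it was called, at -0.96. On the values as deposited neither MYLK (-1.80) nor LMOD1 (-0.87) was called in MEKK1-/- cells.

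The smooth muscle actins gave smaller differences. ACTA2 encodes alpha smooth muscle actin, the usual marker of myofibroblasts. Its log2 intensity was 14.73, 14.72, 14.65 and 14.61 in untreated MEKK1+/+ cells and 14.63, 14.28, 14.44 and 14.52 with conditioned medium. MEKK1-/- arrays read 14.87, 14.45, 14.67 and 14.72 untreated and 14.49, 14.26, 14.57 and 14.53 with conditioned medium. Every treated array was below the untreated array of the same number, but the groups overlapped, and the difference of -0.21 (SE 0.09) in either genotype was not called. In MEKK1+/+ cells it was -0.53 on the values as deposited, where the median of all genes was itself shifted by -0.28, and -0.02 on z-scores over all genes. ACTA2 and TPM1 were among the 181 genes (1%) with the highest mean intensity. Of those 181 genes, 3 were called lower and 2 higher in MEKK1+/+, and 3 lower and 4 higher in MEKK1-/- cells.

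ACTG2 encodes the gamma smooth muscle actin of the gut and of other visceral muscle. Untreated MEKK1+/+ arrays read 12.87, 12.75, 12.09 and 12.15, and those with conditioned medium 13.02, 12.14, 11.54 and 11.97. Untreated MEKK1-/- arrays read 13.16, 12.18, 13.57 and 13.28, and those with conditioned medium 12.48, 12.30, 13.17 and 13.16. Arrays of a single group spread over more than 1 log2 unit in 2 of the groups, which is far more than the differences with conditioned medium of -0.29 and -0.27 (SE 0.34 each). Treated arrays were lower than the untreated array of the same number in 3 of 4 in each genotype.

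Among the myosin genes, MYH11 encodes the smooth muscle myosin heavy chain, the most specific protein of mature smooth muscle. It read 8.72, 7.82, 8.02 and 7.96 in untreated MEKK1+/+ cells and 8.46, 8.07, 7.90 and 8.09 with conditioned medium, a difference of -0.00 (SE 0.25). Its MEKK1-/- arrays read 8.29, 7.76, 8.77 and 8.75 untreated and 7.71, 7.71, 8.51 and 8.32 with conditioned medium, a difference of -0.33 (SE 0.25) with all 4 treated arrays below the untreated array of the same number. Neither difference exceeded the spread between arrays. The nonmuscle myosin heavy chains gave differences of -0.07 in MEKK1+/+ and -0.10 in MEKK1-/- cells for MYH9, and of -0.23 and -0.40 for MYH10, with none called.

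The tropomyosins lie along the actin filament and govern the access of myosin. TPM1 read 14.81, 14.76, 14.72 and 14.35 in untreated MEKK1+/+ cells and 14.49, 14.37, 14.43 and 14.22 with conditioned medium. Its MEKK1-/- arrays read 15.02, 14.54, 14.68 and 14.82 untreated and 14.72, 14.02, 14.55 and 14.27 with conditioned medium. Each treated array was below its same-numbered untreated array, and the groups overlapped. The differences were -0.28 (SE 0.14) and -0.38 (SE 0.14). TPM1 was called in MEKK1-/- cells when the replicate number was fitted as a block within genotype. It was -0.07 in MEKK1+/+ cells on z-scores over all genes. TPM2 differed by -0.19 (SE 0.19) in MEKK1+/+ and by -0.07 (SE 0.19) in MEKK1-/- cells, with ranges of 11.36 to 12.06 untreated and 10.98 to 11.68 with conditioned medium in MEKK1+/+, and 11.50 to 11.92 and 11.19 to 11.82 in MEKK1-/- cells.

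The other actin-binding proteins of the smooth muscle program, TAGLN and CNN1, were not called. TAGLN encodes transgelin, an early marker of smooth muscle differentiation. It ranged from 11.27 to 11.92 in untreated MEKK1+/+ cells and from 10.91 to 11.45 with conditioned medium, and from 11.09 to 11.63 and from 10.95 to 11.54 in MEKK1-/- cells. The differences were -0.20 (SE 0.18) and -0.21 (SE 0.18). In MEKK1-/- cells all 4 treated arrays were below the untreated array of the same number, and in MEKK1+/+ cells 2 of 4. CNN1 encodes calponin 1, which binds actin and inhibits the myosin ATPase. Its values, from 6.77 to 7.09 over all 16 arrays, never passed the background level, so its differences of -0.02 and -0.04 do not bear on a response.

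The members did not vary together in the same way across arrays. Over the 16 arrays MYLK and LMOD1 correlated at r = 0.82 (Spearman 0.84), but at 0.29 (0.45) once group means were removed, since both differ between treated and untreated groups. ACTG2 varied from array to array with ACTA1, the skeletal muscle actin gene, at r = 0.93 (Spearman 0.93) with group means removed, and with MYH11 at 0.82 (0.81). MYH11 followed MYLK at 0.81 (0.82) and TAGLN at 0.80 (0.84). These values describe 16 arrays that share cultures and normalization, and whether the probes of the actin genes, which are close in sequence, read each other's transcripts was not tested.

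**Figure D3:**
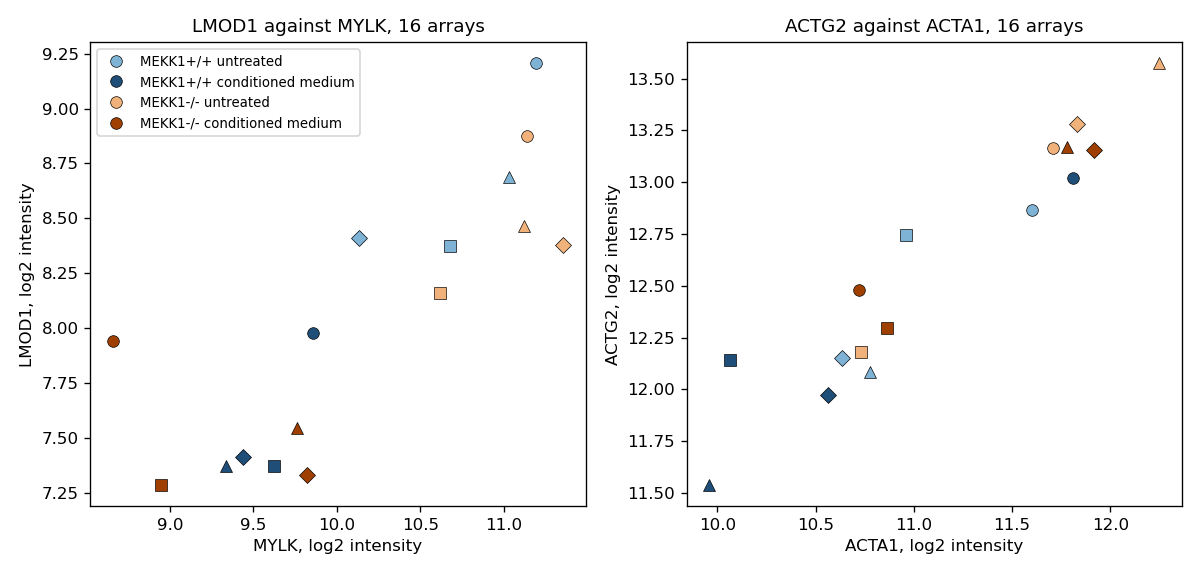
Log2 intensity of LMOD1 against MYLK (left) and of ACTG2 against ACTA1 (right) on the 16 arrays, with colour for the group and marker shape for the replicate number (circle 1, square 2, triangle 3, diamond 4). In the left panel the 8 arrays with conditioned medium lie at lower values of both genes, and in the right panel the arrays line up without regard to treatment.

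The genes outside the 10 whose log2 intensity was most like the mean of the 7 members above background on every array were ATP1B1 (r = 0.96, Spearman 0.94), TMTC4 (0.95, 0.96), FHL1 (0.92, 0.91), GPR1 (0.90, 0.88) and SDPR (0.89, 0.92) over the 16 arrays. ATP1B1 averaged 8.50 in untreated MEKK1+/+ cells, 8.00 with conditioned medium, 8.99 in untreated MEKK1-/- cells and 8.13 with conditioned medium. FHL1, a LIM protein of muscle, averaged 12.08, 11.10, 12.41 and 11.37 in the same order. GPR1 was above background on no array. With group means removed, FAM132B (r = 0.94, Spearman 0.90), ATP1B1 (0.94, 0.93), TMTC4 (0.93, 0.93), IGFBP2 (0.91, 0.89) and GPR1 (0.90, 0.90) stood nearest.

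Around the members, 151 genes of filaments, myosin regulation and SRF signaling were listed, of which 121 were found. Of 42 filament genes found (58 listed), 1 was called higher and 1 lower in MEKK1+/+ cells, against 2 and 1 in MEKK1-/- cells. The 35 genes of myosin regulation found of 46 gave 1 higher and 2 lower, and 0 higher and 1 lower. The 44 regulators and targets of SRF found of 47 gave 1 higher and 3 lower, and 0 higher and 4 lower. The median differences of the lists lay between -0.15 and 0.02 in the respective genotypes. In all, 9 genes were called in MEKK1+/+ and 8 in MEKK1-/- cells, and 5 in both: SRF, FHL2, TGFB1I1 and ATP2A2, which fell, and MYLC2B, which rose. These are 7.44% and 6.61% of the 121 genes, beside 5.01% and 4.69% of all genes called in either direction. The lists were chosen with earlier results of these data known, and the 5 genes are named because they passed. Their adjusted p values given below therefore describe the fit and are no independent test. The counts moved with the fit. The share of all genes called under each of the following fits is not given here, so the changes in count are no result about the lists. With the replicate number as a block within genotype, 21 list genes were called in each. The values as deposited gave 0 in MEKK1-/- cells and arrays scaled to the same median gave 4. Without single arrays the count in MEKK1+/+ cells was 5 (without untreated replicate 3 or treated replicate 4) to 14 (without untreated MEKK1-/- replicate 1), and that in MEKK1-/- cells was 5 to 12, with 5 without untreated replicate 3 or treated replicate 2.

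SRF encodes the transcription factor of the CArG box, and its own promoter window holds a pair of exact matches. It read 9.78, 9.96, 9.93 and 9.41 in untreated MEKK1+/+ cells and 8.97, 8.96, 8.68 and 8.51 with conditioned medium. Its MEKK1-/- arrays read 10.61, 9.92, 10.12 and 10.15 untreated and 9.63, 8.91, 8.93 and 9.0 with conditioned medium. The groups did not overlap in either genotype. SRF fell by 0.99 (SE 0.18, limma adjusted p = 0.00573) in MEKK1+/+ cells and by 1.08 (SE 0.18, limma adjusted p = 0.00313) in MEKK1-/- cells. The myocardin-family coactivators were close to background: MYOCD and MKL2 were above it on 0 arrays and MKL1 on 4.

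FHL2 encodes a LIM protein that is both a target and a partner of SRF. It read 11.87, 11.89, 11.74 and 10.66 in untreated MEKK1+/+ cells against 10.22, 9.94, 10.17 and 10.04 with conditioned medium, and 11.52, 11.65, 12.01 and 12.21 in untreated MEKK1-/- cells against 10.35, 9.98, 10.49 and 10.43. The changes were -1.45 (SE 0.23, limma adjusted p = 0.00246) and -1.53 (SE 0.23, limma adjusted p = 0.00151). TGFB1I1, also called HIC-5, encodes a focal adhesion LIM protein induced by TGF-beta. It read 11.57, 11.70, 11.78 and 11.50 untreated and 10.93, 10.67, 10.67 and 10.68 with conditioned medium in MEKK1+/+ cells, and 12.11, 11.67, 11.72 and 11.53 against 11.12, 10.84, 10.86 and 10.97 in MEKK1-/- cells. It fell by 0.90 (SE 0.11, limma adjusted p = 0.000434) and by 0.81 (SE 0.11, limma adjusted p = 0.000916). SRF and TGFB1I1 correlated at r = 0.95 (Spearman 0.91) over the 16 arrays and at 0.78 (0.71) with group means removed.

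ATP2A2 encodes the calcium pump of the sarcoplasmic and endoplasmic reticulum, which ends the calcium signal that drives MYLK. It ranged from 10.81 to 11.29 untreated and from 10.15 to 10.40 with conditioned medium in MEKK1+/+ cells, and from 10.93 to 11.12 and from 9.94 to 10.59 in MEKK1-/- cells. It fell by 0.72 in both (SE 0.12, limma adjusted p = 0.00385 and 0.00374). MYLC2B, now named MYL12B, encodes a regulatory light chain of nonmuscle myosin, the kind of protein that MYLK phosphorylates. It ranged from 11.32 to 11.41 untreated and from 11.70 to 11.81 with conditioned medium in MEKK1+/+ cells, and from 11.47 to 11.65 and from 11.67 to 12.05 in MEKK1-/- cells. It rose by 0.37 (SE 0.07, limma adjusted p = 0.00633) and by 0.32 (SE 0.07, limma adjusted p = 0.0169), in every pair of same-numbered arrays. On the values as deposited its difference in MEKK1+/+ cells was -0.055, beside a median of -0.28 over all genes. On those values SRF (-1.10), FHL2 (-1.59), TGFB1I1 (-0.89) and ATP2A2 (-0.79) were not called in MEKK1-/- cells, and ATP2A2 (-0.79) was not called there with arrays scaled to the same median. MYLC2B was not called at the same median in MEKK1+/+ (0.23) or MEKK1-/- cells (0.22). Among MEKK1-/- arrays it also lost its call in a fit of only those arrays (0.31), with a robust eBayes with trend (0.32), without untreated replicate 3 (0.28) or treated replicate 2 (0.31), 3 (0.30) or 4 (0.26), and without the arrays numbered 2 it was called in neither genotype (0.35 and 0.30).

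The genes called in one genotype and not in the other, in the fit without a replicate block, were chosen for naming after their values were seen. They were PDLIM7 (lower), PLN (lower), ITPR2 (higher) and NOTCH3 (higher) in MEKK1+/+ cells, and PDLIM5 (lower), MBNL1 (lower) and TMOD1 (higher) in MEKK1-/- cells. PLN was above background on no array. TMOD1 was above it on 0 of 4 untreated MEKK1-/- and 2 of 4 untreated MEKK1+/+ arrays, and on 4 of 4 treated arrays in each genotype. The interaction was not called for any of the genes called in one genotype only, so their responses are not shown to differ between genotypes. NOTCH3, a receptor of mural cells and of the mural marker list, rose by 0.85 in MEKK1+/+ cells (SE 0.19, limma adjusted p = 0.0195) and read 0.70 higher in MEKK1-/- cells (SE 0.19, limma adjusted p = 0.0527). The summed signal of the 13 mural markers ranged from 11.32 to 11.49 untreated and from 11.47 to 11.67 with conditioned medium in MEKK1+/+ cells, and from 11.31 to 11.83 and from 11.59 to 11.77 in MEKK1-/- cells. The mural sum was higher with conditioned medium in 4 of 4 same-numbered pairs in MEKK1+/+ and in 3 of 4 in MEKK1-/- cells. The single mural markers did not move together. Of the 13, 5 read lower in MEKK1+/+ cells (median difference 0.03), with 1 called higher and 1 lower. In MEKK1-/- cells 7 of the 13 read lower (median difference -0.02), with 0 called in either direction. The summed signal of the 8 myoepithelial and basal markers moved in the same direction as MYLK and LMOD1: it was lower with conditioned medium in 4 of 4 pairs in each genotype. It ranged from 10.09 to 10.20 untreated and from 10.02 to 10.07 with conditioned medium in MEKK1+/+ cells, where the groups did not overlap, and from 10.07 to 12.69 and from 10.01 to 12.41 in MEKK1-/- cells. Of these 8 markers, 7 read lower in MEKK1+/+ cells and 8 in MEKK1-/- cells; 1 of the 8 was above background on every array and 3, KRT5 and TRP63 among them, on none. The luminal sum was lower in 4 of 4 MEKK1-/- pairs and in 2 of 4 MEKK1+/+ pairs. The part of these cells in the differences of MYLK and LMOD1 was not tested. The summed fibroblast markers lay between 16.59 and 16.94 on all 16 arrays. That sum was higher with conditioned medium in 3 of 4 pairs in MEKK1+/+ and in 2 of 4 in MEKK1-/- cells. Of the 13 fibroblast markers found, 3 read lower in MEKK1+/+ cells (median difference 0.28) and 5 in MEKK1-/- cells (median 0.07). In each genotype 1 of them was called higher and 0 lower.

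**Figure D4:**
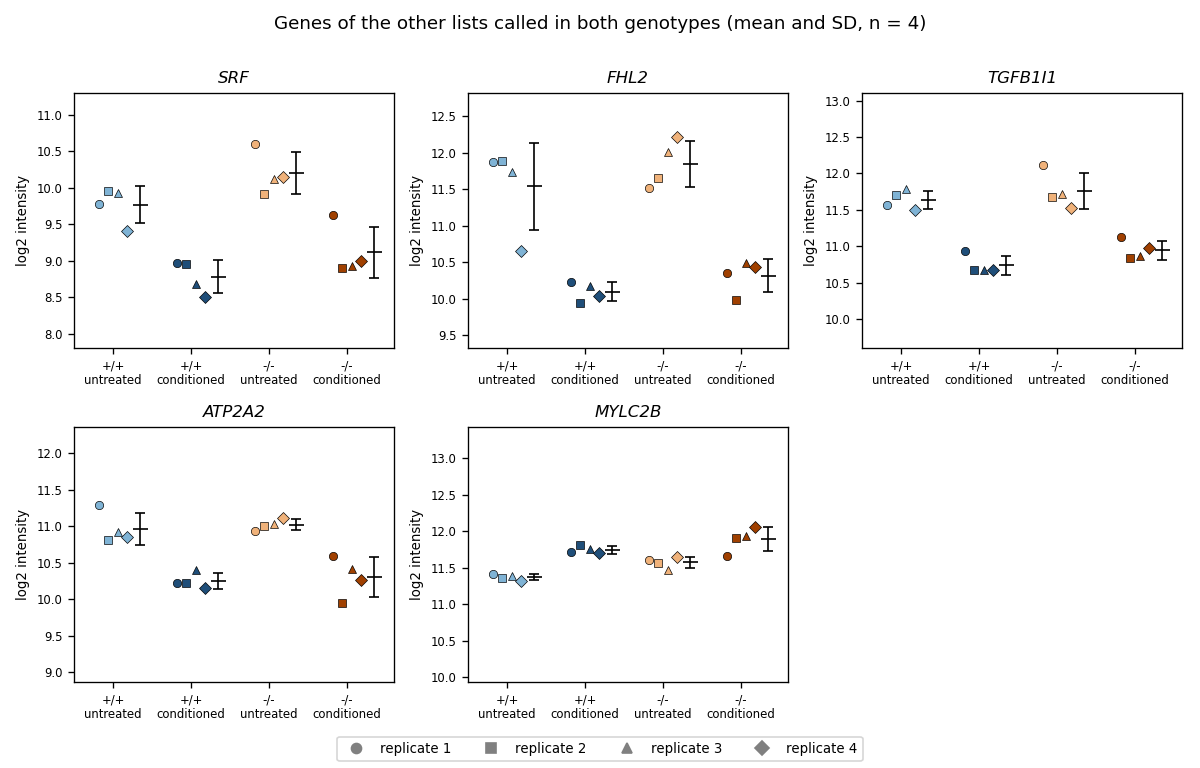
Log2 intensity (y axis) on each array, by genotype and treatment (x axis), for the 5 genes of the surrounding lists called in both genotypes; marker shape gives the replicate number and the bar the mean and SD (n = 4). With conditioned medium the arrays of SRF, FHL2, TGFB1I1 and ATP2A2 lie below all untreated arrays of their genotype, and those of MYLC2B above.

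No contractile gene was called between genotypes. By limma 0 of the 9 members passed in untreated cells or with conditioned medium, where 0.0% and 0.00552% of all genes were called, and 0 of 9 had an unadjusted p under 0.05, against 9.27% and 8.09% of all genes. Untreated, 6 members read higher and 3 lower in MEKK1-/- cells, with a median difference of 0.11, and with conditioned medium 4 read higher and 5 lower, with a median of -0.01. ACTA2 differed by -0.00 (95% interval -0.20 to 0.20) untreated and by -0.01 (-0.21 to 0.19) with conditioned medium, and MYLK by 0.30 (-0.27 to 0.87) and -0.27 (-0.84 to 0.31). LMOD1 differed by -0.20 (-0.64 to 0.24) and by -0.01 (-0.45 to 0.43).

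ACTG2 gave the widest difference. It averaged 12.46 ± 0.40 in untreated MEKK1+/+ and 13.05 ± 0.60 in untreated MEKK1-/- cells (SD, n = 4), a difference of 0.59 (95% interval -0.13 to 1.30). The limma adjusted p was 0.598 and the 2-sided exact permutation p 0.143. With conditioned medium the difference was 0.61 (-0.11 to 1.33), with a limma adjusted p of 0.655 and a 2-sided exact permutation p of 0.143. The groups overlapped through MEKK1-/- replicate 2 (12.18) untreated, and through MEKK1+/+ replicate 1 (13.02) with conditioned medium. ACTA1 differed alike, by 0.64 untreated and 0.72 with conditioned medium, with neither called. Across the lists around the members, 0 genes were called by limma between genotypes in either condition, with 15 of 121 at an unadjusted p under 0.05 untreated and 10 with conditioned medium. Of all genes, 9.27% and 8.09% had such an unadjusted p. The comparison of z-scores named in the methods called 7 list genes in each condition. The share of all genes that it called is not given here.

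The arrays numbered 2 were left out together after their macrophage markers were seen to go against those of their genotype. Leaving out arrays picked in this way favours calls between genotypes, so the counts that follow describe the choice and are no test. Without the arrays numbered 2, 383 genes were called between untreated genotypes (2.11% of all genes) and 120 with conditioned medium (0.662%), where 0 and 1 were called with all arrays. Still 0 members were called, with ACTG2 at 0.96 (limma adjusted p = 0.191) untreated and 0.75 (limma adjusted p = 0.378) with conditioned medium, and of the surrounding lists 1 gene, HEYL, was called in untreated cells. Between genotypes 0 of the 18 macrophage markers were called, with a median difference, MEKK1-/- minus MEKK1+/+, of -0.76 untreated and -0.61 with conditioned medium, and their summed signals overlapped. Their part in the differences of the members was not tested.

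**Figure D5:**
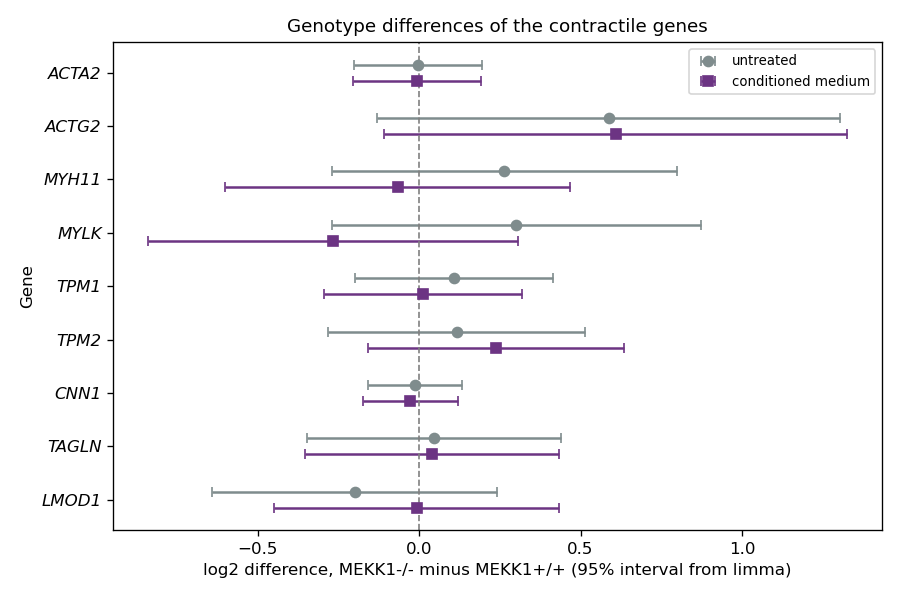
Log2 difference between MEKK1-/- and MEKK1+/+ arrays (x axis) for the 9 contractile genes (y axis), untreated (circles) and with conditioned medium (squares); bars are 95% intervals from limma with 4 arrays a group. Every interval spans 0, and the widest estimates are those of ACTG2, at 0.59 and 0.61.

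The responses of the members to conditioned medium did not differ detectably between genotypes. The interaction was called for 0 of 9 members and for 0.0% of all genes, and 0 of 9 members had an unadjusted p under 0.05, against 2.61% of all genes. Both responses were known when the members were proposed. The largest estimate was that of MYLK, at -0.57 (SE 0.38, 95% interval -1.38 to 0.24, limma adjusted p = 1.0), a nominally larger fall in MEKK1-/- than in MEKK1+/+ cells. Without both MEKK1-/- arrays numbered 1 that estimate was -0.33. For LMOD1 the difference of responses was 0.19 (-0.43 to 0.82) and for ACTA2 -0.00 (-0.28 to 0.28).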

How the data were processed

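Illumina Mouse 8 arrays of 16 cultures were used. Linear intensity values, 1 per array and gene symbol for 18132 genes, were deposited and are called normalized in the labels; the method, the background treatment and the handling of several probes of a gene are not given in the sources used here. Because array medians differed, log2 values were quantile normalized between arrays. A limma 3.58.1 model of the 4 groups (lmFit, eBayes; R 4.3.3) left 12 residual degrees of freedom, with Benjamini-Hochberg adjustment over all genes, at a threshold of 0.05. The background level was the 99th percentile of 1075 olfactory receptor genes on each array. The fit was tested on simulated arrays of the MEKK1+/+ comparison: of 18132 genes, 200 were shifted by 1 log2 unit, 179 of which were recovered with 7 false calls. The simulated noise was normal and independent between genes and arrays, and only genes above the median of mean intensity were shifted. These counts therefore do not describe smaller changes, dimmer genes or arrays that share animals. Single genes were also compared between genotypes by exact permutation.

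The members and the gene lists were chosen with earlier results of these data known. Named genes are all members found, genes of the lists called between genotypes or in both responses (at most 6 a list), the 5 genes most like the members' mean, MAP3K1, and ACTA1, ACTC1, MYH9 and MYH10, the paralogs; ACTC1 was above background on 0 arrays. Same-numbered arrays, with group means removed, correlated at 0.51, 0.40, 0.22 and 0.25 in MEKK1-/-, all above the level of 0.1 set for pairing. In MEKK1+/+ they correlated at -0.04, 0.48, 0.12 and 0.58, where 1 pair missed that level, although macrophage sums there differed by at most 0.193 within a pair. Arrays of different numbers were not compared in this way, so these correlations alone do not show that the numbers pair the cultures. The number of arrays limits the precision. Alternatives were the values as deposited, z-scores over all genes (rescaled to log2 units), the z-test named in the methods on these z-scores, arrays scaled to an equal median, array weights, a robust eBayes with trend, a pseudocount of 16, a filter on background (above it on at least 4 arrays), fits of only the groups compared, replicate blocks and each array left out in turn. Leaving out the MEKK1-/- arrays numbered 1 together, and the arrays numbered 2 of all groups together, was added after seeing the data.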

Additional observations from a re-analysis of the deposited data

Results flagged for a closer look

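Of 60 groups of 4 arrays examined (the members, the 5 named list genes and MAP3K1), 8 held an array whose gap to the next was most of the group's range; by chance about 1 group in 20 does so. TPM2 was highest in untreated MEKK1+/+ replicate 1, at 12.06 against 11.36 to 11.45, and lowest in treated MEKK1-/- replicate 2, at 11.19 against 11.72 to 11.82. TAGLN was highest in the same untreated MEKK1+/+ replicate 1, at 11.92 against 11.27 to 11.29, and lowest in untreated MEKK1-/- replicate 2, at 11.09 against 11.60 to 11.63. LMOD1 was highest in treated MEKK1+/+ replicate 1, at 7.98 against 7.37 to 7.41, and TGFB1I1 in that array too, at 10.93 against 10.67 to 10.68. FHL2 was lowest in untreated MEKK1+/+ replicate 4, at 10.66 against 11.74 to 11.89. SRF was highest in treated MEKK1-/- replicate 1, an array with epithelial transcripts, at 9.63 against 8.91 to 9.0.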

How the results depend on the processing

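With conditioned medium, 2 members were called in MEKK1+/+ cells under each of 11 alternatives that kept every array, and 1 to 2 when single arrays were left out; without the arrays numbered 2 the count was 1 (LMOD1). In MEKK1-/- cells it was 0 on the values as deposited, 1 (MYLK) with arrays scaled to the same median, 1 to 2 with single arrays left out, and 3 with the replicate block within genotype, which added TPM1; a replicate block across all groups gave 2 in each genotype. The members' median in MEKK1+/+ was -0.61 on the values as deposited, where the median of all genes was -0.28. Of the surrounding lists, 9 genes were called in MEKK1+/+, against 21 with the replicate block within genotype, 22 by the z-test, 14 without the MEKK1-/- arrays numbered 1, and 5 to 14 with single arrays left out. In MEKK1-/- cells 8 were called, against 21 with that block, 22 by the z-test, 17 with array weights, 4 at the same median, 0 on the values as deposited, and 5 to 12 with single arrays left out. Between genotypes 0 list genes were called, against 7 by the z-test in each condition and 1 in untreated cells without the arrays numbered 2. Without the MEKK1-/- arrays numbered 1, 6.04% of all genes were called in MEKK1+/+ cells. For most of these settings the share of all genes called is not given here, so changes in the counts of members or list genes are no result about them. MYLC2B reversed to -0.055 in MEKK1+/+ cells on the values as deposited. Where the block added calls or a scaling removed them, the cause was not tested. Members were called between genotypes, or in the interaction, under none of these settings (0 each). A block within genotype could not be fitted between genotypes, and the fit of only the groups compared was not run for the interaction. Genes near background, CNN1 and with conditioned medium LMOD1, are limited by signal over background.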
